A study of Mus musculus with 6 samples.

Results

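Interferon-induced genes were followed as a group of 37 in mouse inguinal white fat, which lies under the skin and holds a lymph node and resident immune cells as well as fat cells. They were taken as the rows of the deposited count table whose gene IDs belong to 37 listed symbols. All 37 were among the 24415 gene IDs, and all 37 passed the filter on low counts. The study sequenced RNA from 6 nonfasted C57BL/6 mice aged 12 weeks, 3 WT and 3 Hsp20 KO, with 1 library per mouse and no treatment. Hsp20 is a small heat shock protein encoded by Hspb6, and the sources used here do not say which allele removes it or in which cells. The list was drawn up with earlier results of these data in view.

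Interferons are secreted proteins that cells release when they sense viral nucleic acid or when lymphocytes are activated. Type I interferons act through the receptor of Ifnar1 and Ifnar2 and through a transcription factor complex that contains STAT2 and IRF9 and binds the interferon-stimulated response element, ISRE. Interferon gamma acts through the receptor of Ifngr1 and Ifngr2 and leads to binding at another DNA element, the gamma-activated site, GAS. The induced genes encode sensors of foreign RNA and DNA, enzymes and GTPases that restrict viruses, and chemokines that draw T cells, and many are expressed at a low level in unstimulated tissue.

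Each library held between 14078936 and 32648746 counts, fewest in Hsp20 KO replicate 3. Hspb6 had 12.6, 9.43 and 8.95 CPM (counts scaled to a fixed library total after TMM adjustment) in WT replicates 1 to 3. It had 8.86, 1.51 and 3.94 CPM in the libraries labelled Hsp20 KO replicates 1 to 3. For the targeted gene the library labelled Hsp20 KO replicate 1 thus lay close to WT, and the log2 change of -1.08 ± 0.51 (SE) did not pass (edgeR quasi-likelihood test, Benjamini-Hochberg adjusted p = 0.227). Without that library it was -1.99 (edgeR adjusted p = 0.0221). Directions below compare the libraries labelled Hsp20 KO with WT. Markers of fat cells were counted in all 6 libraries at a summed 7355 to 11404 CPM.

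Of the 37 interferon-induced genes 2 fell and 0 rose at an adjusted p under 0.05, Rsad2 and Cxcl10. At an unadjusted p under 0.05, 4 were lower and 1 was higher by the same edgeR test, against 12.7% and 13.3% of all tested genes (26% in either direction). DESeq2 and limma-voom also called 2 lower and 0 higher. Over all 15994 tested genes 3.42% fell and 4.23% rose, 7.65% in either direction, so 2 of 37 is near the background and is not a result about the group. The median log2 change of the 37 was -0.09, against 0.0006 over all tested genes. A negative log2 change was fitted for 25 and a positive one for 12, and 34 of the 37 lay within 0.5 of 0. Over all tested genes 7984 were negative and 8010 positive. Of the 37, 15 changed sign under at least 1 alternative analysis. The signs were not tested, here or for the role groups below. The groups of mice did not overlap for 3 genes that were lower and 1 that was higher, against 15.6% and 16.9% of all tested genes.

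**Figure D1:**
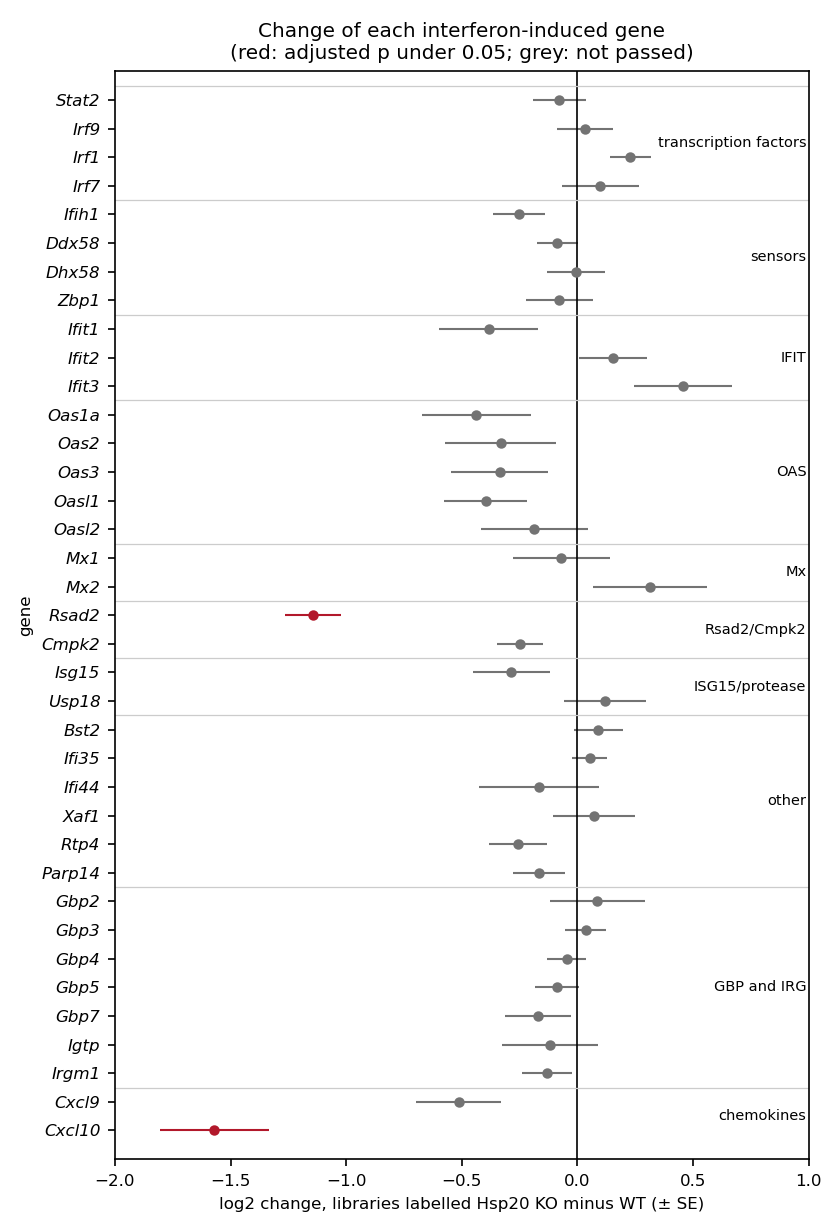
Log2 change of each interferon-induced gene in the libraries labelled Hsp20 KO against WT (n = 3 each), with the SE as bars, grouped by role. Rsad2 at -1.14 and Cxcl10 at -1.57 passed the threshold, and the other 35 genes lay between -0.51 and 0.46.

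Promoter sequences of the 2 genes that fell, of their chromosomal neighbours Cmpk2 and Cxcl9, and of Isg15 and Ifit3, induced genes that did not pass, are shown for comparison of their interferon response motifs. They come from RefSeq (GRCm38.p6), run 5′ to 3′ on the gene's strand, and cover 250 bases before and 50 after an annotated start. For Cmpk2 and Ifit3 that start lies inside the gene span (26469117 to 26479837 and 34583119 to 34588982), not at its outer end. The Ifit3 window lies wholly inside the span. Positions below count from the start used for each window. Capitals mark matches to the ISRE-like motif GAAANNGAAA, searched on both strands with overlapping matches allowed. None of these 6 windows holds the GAS-like motif TTCNNNGAA, searched in the same way. They lie at chr12:26456403-26456702 (minus strand, Rsad2), chr12:26468965-26469264 (plus, Cmpk2), chr5:92348840-92349139 (minus, Cxcl10), chr5:92328030-92328329 (minus, Cxcl9), chr4:156200769-156201068 (minus, Isg15) and chr19:34583279-34583578 (plus, Ifit3).
Rsad2: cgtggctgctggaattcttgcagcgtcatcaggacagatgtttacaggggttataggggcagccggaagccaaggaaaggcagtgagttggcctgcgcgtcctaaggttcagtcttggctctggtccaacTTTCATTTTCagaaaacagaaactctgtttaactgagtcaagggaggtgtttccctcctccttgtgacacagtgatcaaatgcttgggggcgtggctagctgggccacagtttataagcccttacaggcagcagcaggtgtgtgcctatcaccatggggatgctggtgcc
Cmpk2: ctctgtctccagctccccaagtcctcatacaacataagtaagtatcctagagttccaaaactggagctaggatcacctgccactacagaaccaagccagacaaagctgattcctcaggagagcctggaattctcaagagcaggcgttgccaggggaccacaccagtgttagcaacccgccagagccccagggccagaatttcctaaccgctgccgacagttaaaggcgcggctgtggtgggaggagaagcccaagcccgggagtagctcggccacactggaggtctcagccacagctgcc
Cxcl10: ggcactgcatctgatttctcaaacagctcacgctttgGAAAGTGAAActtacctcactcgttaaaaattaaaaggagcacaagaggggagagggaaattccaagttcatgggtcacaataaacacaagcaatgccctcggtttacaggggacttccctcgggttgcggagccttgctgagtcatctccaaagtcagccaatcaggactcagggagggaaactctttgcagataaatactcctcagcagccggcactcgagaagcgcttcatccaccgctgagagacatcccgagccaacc
Cxcl9: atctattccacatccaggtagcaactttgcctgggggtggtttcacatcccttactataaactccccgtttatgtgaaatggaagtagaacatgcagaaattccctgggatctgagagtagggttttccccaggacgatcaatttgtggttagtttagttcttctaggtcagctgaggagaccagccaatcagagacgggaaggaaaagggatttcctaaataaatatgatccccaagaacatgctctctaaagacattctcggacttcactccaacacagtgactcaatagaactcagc
Isg15: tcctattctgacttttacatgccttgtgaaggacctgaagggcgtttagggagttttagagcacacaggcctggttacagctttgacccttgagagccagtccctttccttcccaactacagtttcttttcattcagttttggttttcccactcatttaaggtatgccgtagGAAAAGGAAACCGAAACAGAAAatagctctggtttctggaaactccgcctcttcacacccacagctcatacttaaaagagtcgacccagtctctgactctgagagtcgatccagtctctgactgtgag
Ifit3: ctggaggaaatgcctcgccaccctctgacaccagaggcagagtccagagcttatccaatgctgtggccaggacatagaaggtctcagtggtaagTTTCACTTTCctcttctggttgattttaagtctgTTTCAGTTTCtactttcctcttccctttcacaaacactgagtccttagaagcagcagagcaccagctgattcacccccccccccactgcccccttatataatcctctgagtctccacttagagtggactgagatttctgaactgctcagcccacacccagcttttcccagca

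The first base of the match lay at -120 from the start in Rsad2 and at -213 in Cxcl10. Isg15 held 3 overlapping matches, from -78, -72 and -66, and Ifit3 held matches at -156 and -122. The windows of Cmpk2 and Cxcl9 held none of these letters. Of the 37 genes 28 had a promoter in the RefSeq table, and 17 of these 28 (60.7%) held the ISRE-like motif, against 3.99% of all 27025 genes with a promoter in the table (3.44% of 32851 promoters, all of the same length). Both genes that fell were among the 17, together with 15 that did not pass. The GAS-like motif was found in 8 of the 28 (28.6%), against 9.55% of all genes (8.30% of promoters), and in neither gene that fell. A match describes letters in a window and is not evidence of binding.

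Rsad2 encodes viperin, a radical S-adenosylmethionine enzyme of the endoplasmic reticulum and lipid droplets that restricts many viruses. It lies on chromosome 12 (26442743 to 26456452, GRCm38, minus strand) and no other annotated gene overlaps it. It had 39.2, 30.6 and 35.5 CPM in WT replicates 1 to 3 (1009, 937 and 1175 counts). It had 17.4, 14.1 and 16.1 CPM in the libraries labelled Hsp20 KO replicates 1 to 3 (480, 308 and 217 counts). The 3 labelled knockout libraries, replicate 1 included, all lay below the lowest WT library, and the spread within each group was smaller than the gap between them. The Rsad2 means were 35.1 ± 4.31 CPM for WT and 15.9 ± 1.64 CPM for the labelled knockout libraries (SD, n = 3 each). Rsad2 was 2.21-fold lower, with a log2 change of -1.14 ± 0.12 (SE; edgeR adjusted p = 0.00454). It passed under all 14 alternative analyses (adjusted p from 3.34e-12 to 0.0309, log2 change from -1.23 to -1.06), among them the one without Hsp20 KO replicate 1 (log2 change -1.22, edgeR adjusted p = 0.00314).

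Cmpk2, a mitochondrial nucleoside monophosphate kinase, is induced together with Rsad2 in many cell types. Its gene (chromosome 12, 26469117 to 26479837, plus strand) lies 12664 bases from that of Rsad2, on the opposite strand. Cmpk2 had 21.5, 18.9 and 23.3 CPM in WT and 18.0, 18.3 and 17.3 CPM in the libraries labelled Hsp20 KO replicates 1 to 3. The groups did not overlap, but WT replicate 2 lay within 1 CPM of the knockout-labelled range, and the log2 change of -0.25 ± 0.10 (SE) did not pass (edgeR adjusted p = 0.170). Per base of exon, the read ratio of Rsad2 to Cmpk2 was 1.75, 1.56 and 1.46 in WT and 0.924, 0.741 and 0.894 in the labelled knockout libraries. The ratio therefore fell below 1 in 3 of 3 labelled knockout libraries and in 0 of 3 WT libraries. The pair was chosen after its values were seen, and the ratio is a description.

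Cxcl10, a chemokine that attracts T cells and NK cells through the receptor CXCR3, had 14.9, 8.78 and 12.0 CPM in WT replicates 1 to 3 (384, 269 and 397 counts). It had 3.94, 4.81 and 3.12 CPM in the libraries labelled Hsp20 KO replicates 1 to 3 (109, 105 and 42 counts). All 3 labelled knockout libraries lay below all 3 WT libraries, and the WT libraries spread more widely. The Cxcl10 means were 11.9 ± 3.06 CPM for WT and 3.96 ± 0.845 CPM for the labelled knockout libraries (SD, n = 3 each). Cxcl10 was 2.97-fold lower, with a log2 change of -1.57 ± 0.24 (SE; edgeR adjusted p = 0.0131). Without WT replicate 3 it did not pass (log2 change -1.57, edgeR adjusted p = 0.0618), while the other 13 alternatives called it, also without Hsp20 KO replicate 1 (log2 change -1.56, edgeR adjusted p = 0.0196). The fit without WT replicate 3 called 53 genes lower over the whole table, against 547 in the main fit. The Cxcl10 gene (chromosome 5, 92346638 to 92348889, minus strand) overlaps Art3, and the strand setting of the count is not given. The fitted value of Art3 had the opposite sign, 0.35 ± 0.12 on the log2 scale (SE), and did not pass (edgeR adjusted p = 0.112).

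Cxcl9, another ligand of CXCR3 and a typical target of interferon gamma, lies 18558 bases from Cxcl10 in the same orientation. It had 40.0, 55.4 and 57.7 CPM in WT and 34.0, 29.5 and 44.3 CPM in the libraries labelled Hsp20 KO replicates 1 to 3. WT replicate 1 lay below Hsp20 KO replicate 3, so the groups overlapped, and the log2 change of -0.51 ± 0.18 (SE) did not pass (edgeR adjusted p = 0.130). The ratio of Cxcl10 to Cxcl9 reads per exon base was 0.499, 0.212 and 0.278 in WT and 0.155, 0.218 and 0.0944 in the labelled knockout libraries, where the groups overlapped. Whether Cxcl10 and Cxcl9 changed by different amounts was not tested.

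**Figure D2:**
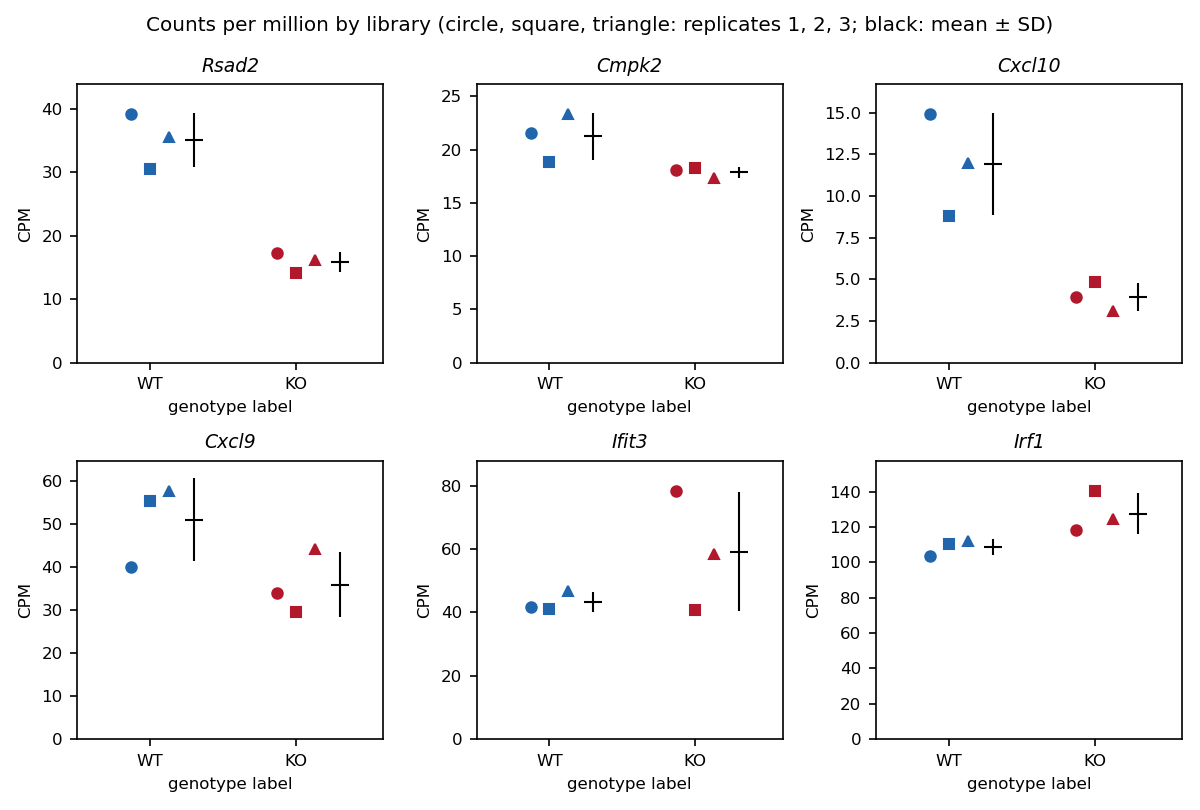
CPM of 6 interferon-induced genes in each library, WT in blue and libraries labelled Hsp20 KO in red, with the mean and SD in black (n = 3 each). Rsad2 and Cxcl10 separate the groups widely, Cmpk2 and Irf1 separate them narrowly, and Cxcl9 and Ifit3 overlap.

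The transcription factors of the response did not pass. Irf1, which is induced by interferon gamma and activates many of these genes, had 104, 110.4 and 112 CPM in WT. It had 118, 140.4 and 124 CPM in the libraries labelled Hsp20 KO replicates 1 to 3. The groups did not overlap, with a log2 change of 0.23 ± 0.09 (SE; edgeR adjusted p = 0.149), opposite in sign to those of Rsad2 and Cxcl10. Irf7, which amplifies type I interferon production, had 65.3, 66.8 and 63.0 CPM in WT against 90.4, 57.4 and 60.7 CPM, so that Hsp20 KO replicate 1 stood above the rest and the other 2 below WT. Stat2 and Irf9, which encode parts of the complex that binds ISRE, had log2 changes of -0.08 and 0.03.

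Of 4 sensors of nucleic acid 0 passed, and all 4 had a negative log2 change. Ddx58, which encodes RIG-I and detects viral RNA ends, had 69.1, 59.5 and 60.5 CPM in WT and 62.1, 60.2 and 55.5 CPM in the labelled knockout libraries. Its log2 change was -0.09 ± 0.09 (SE; edgeR adjusted p = 0.580). Ifih1, encoding the long RNA sensor MDA5, had a log2 change of -0.25 ± 0.11, Zbp1, a sensor of Z-form nucleic acid, of -0.08 ± 0.14, and Dhx58, a regulator of both RNA sensors, of -0.01 ± 0.12. All 4 lay between edgeR adjusted p values of 0.202 and 0.980, and the groups overlapped for each. Without the library labelled Hsp20 KO replicate 1, Ifih1 was at -0.36 (edgeR adjusted p = 0.0744), Zbp1 at -0.20 and Dhx58 at -0.11.

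The 3 IFIT genes, whose products bind foreign RNA, lie within 99460 bases on chromosome 19 and had changes of different signs. Ifit3 had 41.8, 41.1 and 46.8 CPM in WT and 78.4, 40.7 and 58.6 CPM in the libraries labelled Hsp20 KO replicates 1 to 3. Hsp20 KO replicate 2 lay below every WT library and the other 2 above, and the log2 change of 0.46 ± 0.21 (SE) did not pass (edgeR adjusted p = 0.220). Without Hsp20 KO replicate 2 it passed as higher (log2 change 0.67, edgeR adjusted p = 0.0466). Leaving out Hsp20 KO replicate 1 instead brought Ifit3 down to 0.20 on the log2 scale (edgeR adjusted p = 0.466). Ifit1 had a log2 change of -0.38 ± 0.21 and Ifit2, at 32.3, 22.4 and 24.1 CPM in WT and 31.9, 28.6 and 27.0 CPM in the labelled knockout libraries, of 0.15 ± 0.15. Within each library the ratio of Ifit3 to Ifit1 reads per exon base was 2.5, 2.77 and 1.95 in WT and 4.58, 3.68 and 4.08 in the labelled knockout libraries, where the groups did not overlap. This ratio was chosen after the values were seen. Ifit3 has a close copy, Ifit3b, which can share its reads, so the levels of both are uncertain.

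The 5 OAS genes belong to the family of 2′-5′ oligoadenylate synthetases, which activate RNase L, though not every member of the family has that activity. All 5 had a negative log2 change, from -0.44 to -0.19, and 0 passed (edgeR adjusted p from 0.210 to 0.656). Oas1a had 20.7, 15.9 and 19.2 CPM in WT and 18.2, 9.07 and 13.7 CPM in the libraries labelled Hsp20 KO replicates 1 to 3. Oasl2, the OAS gene with the highest CPM, had 36.1, 31.0 and 42.5 CPM in WT and 41.7, 21.3 and 33.2 CPM in the labelled knockout libraries. In both genes Hsp20 KO replicate 2 was lowest and replicate 1 lay within the WT range. The median deviation of the 5 genes from the WT mean, on log2(CPM + 0.5), was 0.05 in Hsp20 KO replicate 1 and -0.75 and -0.41 in replicates 2 and 3. Without the library labelled Hsp20 KO replicate 1, Oas1a was at -0.72, Oas2 at -0.62 and Oas3 at -0.58 on the log2 scale (edgeR adjusted p = 0.0702, 0.103 and 0.0859), and Oasl2 and Oasl1 were both at -0.43. None of the 5 passed in that fit either. Oas1a and its near copies can share reads.

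Mx1 and Mx2 encode dynamin-like antiviral GTPases, and both are annotated as transcribed pseudogenes in this genome assembly. Mx1 had 18.4, 12.8 and 17.6 CPM in WT and 17.0, 18.1 and 10.9 CPM in the labelled knockout libraries (log2 change -0.07 ± 0.21, edgeR adjusted p = 0.864). Mx2 had 6.09, 4.73 and 6.65 CPM in WT and 8.97, 7.78 and 4.68 CPM in the labelled knockout libraries (log2 change 0.31 ± 0.25, edgeR adjusted p = 0.464). Their groups overlapped. Isg15, a ubiquitin-like protein attached to other proteins, had a log2 change of -0.29 ± 0.17, and Usp18, the protease that removes it and dampens receptor signalling, of 0.12 ± 0.18. Usp18 had 21.6, 15.3 and 19.0 CPM in WT and 24.5, 19.8 and 16.1 CPM in the libraries labelled Hsp20 KO replicates 1 to 3. Leaving out Hsp20 KO replicate 1 put Mx1 at -0.15, Mx2 at 0.12, Isg15 at -0.46 and Usp18 at -0.05 on the log2 scale.

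Of 7 GTPases that are mainly induced by interferon gamma 0 passed. The 5 guanylate-binding proteins and the immunity-related GTPases Igtp and Irgm1, which attack vacuoles of intracellular pathogens, had log2 changes between -0.17 and 0.09 (edgeR adjusted p from 0.487 to 0.840). Without the library labelled Hsp20 KO replicate 1, Gbp7 moved from -0.17 to -0.35 and did not pass (edgeR adjusted p = 0.0676). Gbp2 had 66.7, 91.6 and 104 CPM in WT and 113, 70.6 and 94.4 CPM in the libraries labelled Hsp20 KO replicates 1 to 3. All 7 overlapped between the groups. Gbp4 had a log2 change of -0.05 ± 0.08 and Gbp3 of 0.04 ± 0.09, while the SE of Gbp2 was 0.21. These genes belong to families of close copies, and shared reads make single members uncertain.

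The remaining 6 genes did not pass either, with log2 changes from -0.26 to 0.09. Parp14, a mono-ADP-ribosyltransferase, had 115, 86.2 and 104 CPM in WT and 95.4, 89.8 and 86.4 CPM in the labelled knockout libraries (log2 change -0.17 ± 0.11, edgeR adjusted p = 0.387). Bst2, which encodes tetherin, a protein that holds budding virus at the cell surface, had a log2 change of 0.09 ± 0.10. Per kilobase of exon it had the highest level of the 36 genes with a known exon length, 59.7 CPM per kilobase in WT and 63.5 in the labelled knockout libraries. Ifi44, at the other end, had 0.842 CPM per kilobase in WT. Ifi35, Xaf1 and Rtp4 had log2 changes of 0.05, 0.07 and -0.26.

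Members varied between mice of a group. In WT replicate 3 the count of genes at their highest was 13 of 37, with 0 at their lowest, and in the library labelled Hsp20 KO replicate 1 these counts were 11 and 0. The libraries labelled Hsp20 KO replicates 2 and 3 held the lowest value of 15 and 14 genes. Of all 15994 tested genes, Hsp20 KO replicates 2 and 3 held the lowest value of 3533 and 3155. WT replicate 3 and Hsp20 KO replicate 1 held the highest value of 2694 and 1959 of all tested genes, and the lowest of 2405 and 2180. The median deviation of the 37 genes from the WT mean was -0.04, -0.13 and 0.11 in WT replicates 1 to 3 and 0.08, -0.17 and -0.21 in the libraries labelled Hsp20 KO replicates 1 to 3. The group medians overlapped, and a link between the Hspb6 level and these deviations was not tested. The library whose Hspb6 level was close to WT was the one labelled knockout with a positive deviation. Without it, 11 of the 37 (29.7%) were lower and 1 (2.70%) was higher at an unadjusted p under 0.05, against 13.2% and 13.8% of the 16167 genes tested in that fit. The 11 were Rsad2, Cxcl10, Oas1a, Oas2, Oas3, Gbp7, Ifih1, Isg15, Rtp4, Ifi44 and Ifit1. Among them Isg15 was at -0.46, Ifi44 at -0.52 and Ifit1 at -0.55 on the log2 scale. At the adjusted threshold edgeR called 2 lower and 0 higher without that library. The median log2 change of the 37 was then -0.15. That library held the highest value of 11 of the 37, and leaving out any other library gave fewer lower genes. Without WT replicate 1, 2 or 3, 3, 5 and 2 of the 37 were lower at an unadjusted edgeR p under 0.05. That compares with 11.1%, 10.2% and 8.74% of all genes tested. Without Hsp20 KO replicate 2 or 3, 2 and 3 were lower, against 11.4% and 11.7% of all genes. From 0 to 2 of the 37 were higher in these fits.

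**Figure D3:**
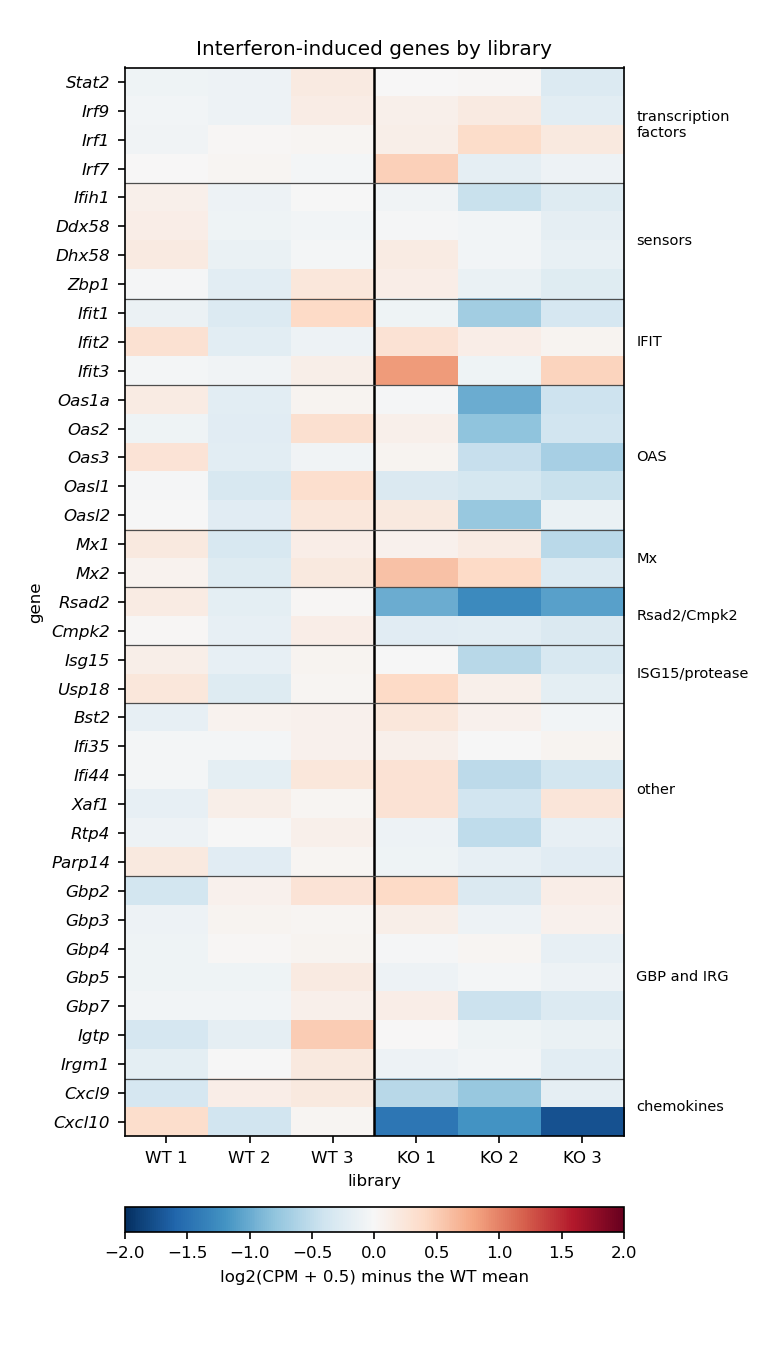
Deviation of log2(CPM + 0.5) from the WT mean for each of 37 interferon-induced genes (rows, by role) in each library (columns), red for higher and blue for lower. Rsad2 and Cxcl10 are blue in all 3 libraries labelled Hsp20 KO, while Oas1a, Oas2 and Oasl2 are bluest in replicate 2 and Oas3 and Oasl1 in replicate 3.

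Interferons themselves were at or near the limit of the counts. Ifna1, Ifna2 and Ifne had 0 counts in every library, and Ifnb1 and Ifna4 had 1 count each over all 6. Ifnk had 2 counts over all 6 libraries. Ifng had 6, 6 and 23 counts in WT and 14, 6 and 2 counts in the libraries labelled Hsp20 KO replicates 1 to 3. All 7 failed the filter on low counts and were not tested.

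The receptor chain that binds interferon gamma fell, while its partner did not pass. Ifngr1 had 224, 289 and 288 CPM in WT and 185, 150.1 and 160.5 CPM in the libraries labelled Hsp20 KO replicates 1 to 3, without overlap. The means were 267 ± 37.2 and 165 ± 18.1 CPM (SD, n = 3 each), 1.62-fold lower in the labelled knockout libraries (log2 change -0.69 ± 0.13 SE, edgeR adjusted p = 0.0253). The signalling chain Ifngr2 differed by 0.01 ± 0.08 on the log2 scale (edgeR adjusted p = 0.951). Of the type I receptor chains, Ifnar1 differed by -0.08 ± 0.07 on the log2 scale (edgeR adjusted p = 0.513) and Ifnar2 by 0.30 ± 0.08 (edgeR adjusted p = 0.0684, or 0.0268 with the DESeq2 test). The Ifngr1 call was lost without WT replicate 2 or 3 or without Hsp20 KO replicate 2 or 3 (edgeR adjusted p up to 0.113, log2 change from -0.81 to -0.63 over all libraries left out). Each of these fits also called fewer genes over the whole table, from 53 to 287 lower against 547 in the main fit.

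Of 100 listed pathway genes outside the 37, 92 were tested, and 7 fell and 1 rose, against 3.42% and 4.23% of all tested genes. Their median log2 change was -0.04. At an unadjusted edgeR p under 0.05, 18 of the 92 (19.6%) were lower and 8 (8.70%) higher. Over all tested genes these shares were 12.7% and 13.3%, and the list was not tested against them. Beside Ifngr1, the genes that fell were Socs3, Ifi205, Ifi207, Mnda, Slfn5 and H2-Ab1. Socs3, an inhibitor of cytokine receptor signalling, had 26.7, 80.3 and 92.9 CPM in WT and 22.1, 17.4 and 12.6 CPM in the labelled knockout libraries (log2 change -1.92 ± 0.43, edgeR adjusted p = 0.0409). WT replicate 1 lay near the labelled knockout libraries. With limma-voom (adjusted p = 0.0803) and with robust dispersions (edgeR adjusted p = 0.0673) Socs3 did not pass.

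Ifi205, Ifi207 and Mnda belong to a cluster of interferon-inducible HIN-200 genes on chromosome 1. Ifi205 had 120.2, 198 and 283 CPM in WT and 91.3, 74.3 and 66.7 CPM in the labelled knockout libraries. Their log2 changes were -1.37, -1.30 and -1.26 (edgeR adjusted p = 0.0326, 0.0268 and 0.0363). The groups did not overlap in any of the 3, which are close copies and can share reads, so their levels are uncertain. Slfn5, a schlafen protein, fell by 0.53 on the log2 scale, and H2-Ab1, a chain of MHC class II, by 0.55 (edgeR adjusted p = 0.0477 and 0.0417). Slfn5 was not called with upper quartile normalization (edgeR adjusted p = 0.0527). Ifi27, a mitochondrial protein induced by interferon, rose from 289 ± 10.2 to 415.5 ± 61.4 CPM (SD, n = 3 each; log2 change 0.53 ± 0.12, edgeR adjusted p = 0.0433). It lies within the span of Ifi27l2a on the opposite strand, whose log2 change was -0.64 ± 0.19 (edgeR adjusted p = 0.0804). Slfn5 overlaps the counted gene Slfn5os. With the strand setting not given, reads of such pairs cannot be told apart, and the levels of Ifi27 and Slfn5 are uncertain. The 8 calls were sensitive to single mice, as were calls over all tested genes, 547 lower and 676 higher in the main fit. Without WT replicate 2 or 3 edgeR called 0 lower and 0 higher, with 15 or 13 lower and 4 or 5 higher at an unadjusted p under 0.05. Over all genes it then called 58 or 53 lower and 79 or 75 higher. Without Hsp20 KO replicate 3 it also called 0 and 0 pathway genes, with 15 (16.1%) lower and 11 (11.8%) higher at an unadjusted p under 0.05. The shares of all genes at that p were 11.7% lower and 12.1% higher. Over all genes that fit called 266 lower and 327 higher. Without Hsp20 KO replicate 2 it called 1 lower and 1 higher, without WT replicate 1, 8 lower and 0 higher, and without Hsp20 KO replicate 1, 9 lower and 2 higher. Over all genes those fits called 287, 329 and 730 lower and 325, 325 and 941 higher.

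**Figure D4:**
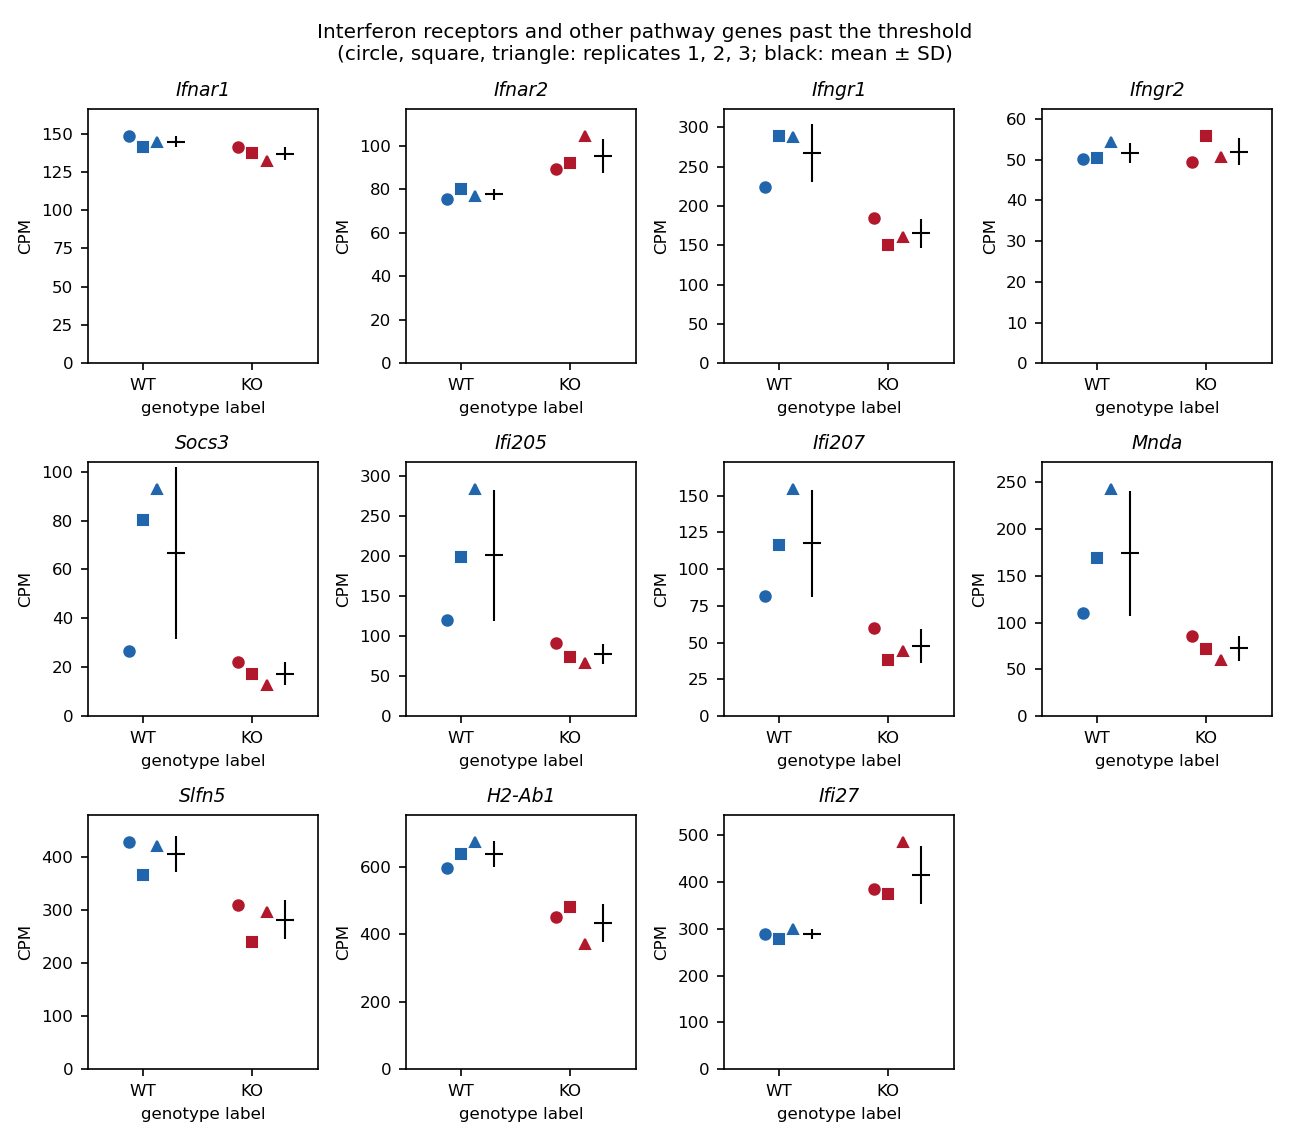
CPM by library of the 4 interferon receptor chains and of the other pathway genes that passed the threshold, WT in blue and libraries labelled Hsp20 KO in red, with the mean and SD in black (n = 3 each). Socs3, Ifi205, Ifi207 and Mnda spread widely among the WT mice, and WT replicate 1 is the lowest of them in each.

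Of 10 lists of cell type markers, those of blood, NK cells, conventional dendritic cells and plasmacytoid dendritic cells held genes that fell, and 0 genes of any list rose. Of all tested genes 3.42% fell and 4.23% rose, and 12.7% were lower and 13.3% higher at an unadjusted edgeR p under 0.05. These shares stand beside every marker list here and in the next paragraph, and no list was tested against them. With 4 to 8 genes tested in a list, 1 call or 1 low p is not a result about the list. In bulk tissue, fewer cells of a type and less RNA per cell cannot be told apart. Blood transcripts, 5 of 5 tested, all fell, with summed levels of 8985 to 10316 CPM in WT and 3963 to 4833 CPM in the libraries labelled Hsp20 KO. Their median deviation from the WT mean was -0.99, -1.16 and -1.35 in Hsp20 KO replicates 1 to 3, where Rsad2 deviated by -0.99, -1.28 and -1.09 and Cxcl10 by -1.45, -1.19 and -1.75. Hba-a1 and Hba-a2 hold nearly the same counts and are not independent. Of 7 macrophage markers 0 passed, with 5 lower and 0 higher at an unadjusted edgeR p under 0.05. Their summed level was 646, 660.3 and 693 CPM in WT and 648, 420.2 and 493 CPM in the labelled knockout libraries. In Hsp20 KO replicate 1 the sum lay within the WT range, but 4 of the 7 markers lay below every WT library and 1, Csf1r, above. The median deviation was -0.15 there, against -0.12 in the lowest WT library, and -0.92 and -0.64 in Hsp20 KO replicates 2 and 3.

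Neutrophil markers summed to 8.27 to 14.8 CPM in WT and 2.82 to 7.01 CPM in the labelled knockout libraries, and 0 of 4 tested passed, with 3 lower and 0 higher at an unadjusted edgeR p under 0.05. Of 6 NK cell markers 2 fell, Klrb1c and Gzmb, with 3 lower and 1 higher at an unadjusted edgeR p under 0.05. The higher one was Ncr1, a defining NK cell receptor, with a log2 change of 0.75 ± 0.32 (edgeR adjusted p = 0.188). Of 6 conventional dendritic cell markers 1 fell, Cd209a, with 2 lower and 0 higher at an unadjusted edgeR p under 0.05. Sums of the NK markers were 20.7 to 25.8 CPM in WT and 14.6 to 23.9 CPM in the labelled knockout libraries, and sums of the dendritic cell markers 105 to 111 and 86.4 to 97.8 CPM. Plasmacytoid dendritic cells are a main source of type I interferon. Of their 8 markers 1 fell, Tcf4, which other cells express too, with no other below an unadjusted edgeR p of 0.05, and their defining marker Siglech differed by 0.12 on the log2 scale (edgeR adjusted p = 0.722). Their summed level was 510.3 to 567 CPM in WT and 422 to 482 CPM in the labelled knockout libraries. Tcf4 held the largest part of these sums, with means of 272.4 CPM in WT and 191.5 CPM in the labelled knockout libraries. For the other 7 markers the groups overlapped, so the lower sums are not a result about this cell type. Among these markers Bst2 is also one of the interferon-induced genes and Irf8 a listed pathway gene, so the lists are not separate. T cell and B cell markers had 0 of 7 and 0 of 6 passing by edgeR, with 2 and 0 higher and 0 and 0 lower at an unadjusted p under 0.05. Their sums were 257 to 306 and 619.7 to 654 CPM in WT, and 261 to 399 and 399.98 to 799.7 CPM in the labelled knockout libraries. Endothelial markers, 0 of 4 passing with 1 lower and 0 higher at an unadjusted edgeR p under 0.05, summed to 689 to 737 and 601 to 693 CPM, and fat cell markers, 0 of 5 passing with 1 higher and 0 lower, to 7355 to 9446 and 7690 to 11404 CPM. None of the 59 markers in the table was at 0 in every library. The part of these cell types in the results for Rsad2, Cxcl10 and the pathway genes was not tested.

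**Figure D5:**
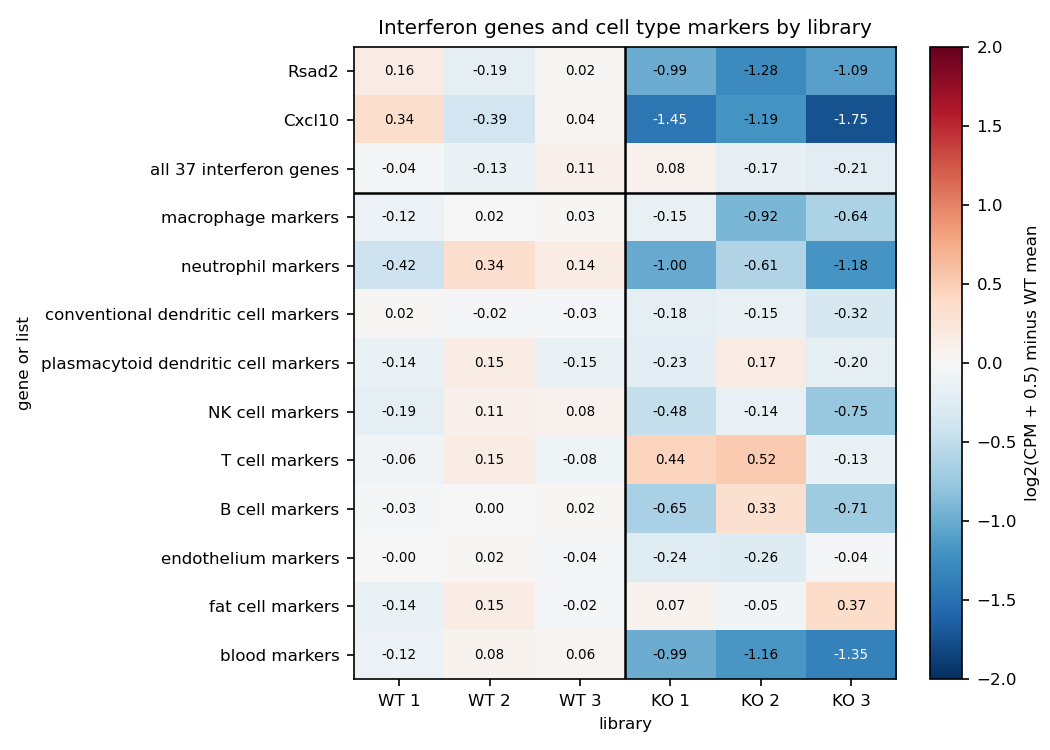
Deviation of log2(CPM + 0.5) from the WT mean in each library for Rsad2, Cxcl10, the median of the 37 interferon-induced genes and the median of each cell type's tested markers. Rsad2, Cxcl10 and the blood markers are low in all 3 libraries labelled Hsp20 KO, and the macrophage median is -0.15 in replicate 1 and -0.92 and -0.64 in replicates 2 and 3. Bst2 is in both the 37 genes and the plasmacytoid dendritic cell list.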

How the data were processed

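RNA of inguinal white adipose tissue from 6 mice was measured by RNA sequencing. Per gene ID and mouse, the authors deposited raw counts (whole numbers, not normalized). Per the submitters' processing notes, bcl2fastq, CASAVA 1.8, TopHat and DESeq were used with the builds mm10 and GRCm38. The sources used here name no counter, annotation or strand setting. Columns were matched by sample name, and 24334 of 24415 gene IDs were matched to symbols of RefSeq GRCm38.p6. The other 81 held 1.30% to 5.74% of a library's counts.

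Genes were tested with edgeR 4.0.16 in R 4.3.3 (filterByExpr with minimum count 10 and minimum total 15, TMM, quasi-likelihood F test, genotype as the only term). P-values were adjusted by Benjamini-Hochberg over all 15994 tested genes, and called under 0.05. Each SE was derived from the log2 change and its F statistic. Replicates are separate mice per the labels. The script was tested on simulated data. Levels per kilobase use exon unions of GENCODE vM21, which gave a length for 36 of the 37 genes. Per-library deviations use log2(CPM + 0.5).

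Members, gene lists and tests were chosen with earlier results of these data known. Full values are given for genes past the threshold in any analysis, the 4 largest changes in each direction and the highest gene of each role. For pathway genes they are given for calls, receptors and ligands. As alternatives, the scaling was replaced by DESeq2 size factors or the upper quartile, the filter by none or by 1 CPM in 3 libraries, and the test by DESeq2 1.42.0 or limma-voom 3.58.1. Robust dispersions, a replicate block and leaving out each library were also tried. Figures were drawn with matplotlib 3.10.9.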

Additional observations from a re-analysis of the deposited data

How the results depend on the processing

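Under all 14 alternatives Rsad2 kept its direction and its call. Cxcl10 lost its call without WT replicate 3. The number of interferon-induced genes called ranged from 1 to 2 lower and from 0 to 1 higher when single libraries were left out, and it stayed at 2 and 0 under the other 8 alternatives. The DESeq2 test called 1135 genes higher and 1024 lower over the whole table, and 3 higher and 13 lower among the pathway genes. Samples share only a replicate number: the deviations of same-numbered libraries correlated at -0.04, 0.10 and -0.11, and 1 of 3 WT libraries correlated best with its own number. With a replicate block edgeR called 226 genes higher and 169 lower, and 0 and 0 pathway genes. Before adjustment (edgeR p under 0.05), 5 of 92 pathway genes (5.43%) were higher and 18 (19.6%) lower in that fit. The shares of all tested genes were 12.0% higher and 12.1% lower. Leaving out single libraries gave 75 to 941 genes higher and 53 to 730 lower over the whole table, and 0 to 2 higher and 0 to 9 lower among the pathway genes. Hspb6 then ranged from -1.99 to -0.64 on the log2 scale, and passed without Hsp20 KO replicate 1 (edgeR adjusted p = 0.0221).

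Of the 37 genes 15 changed sign under at least 1 alternative, all with a log2 change of at most 0.19 in size. Dhx58 became 0.0094 with upper quartile normalization and 0.016 with limma-voom. With single libraries left out, Dhx58 ranged from -0.11 to 0.082, Gbp2 from -0.086 to 0.25, Gbp3 from -0.020 to 0.10, Gbp4 from -0.095 to 0.016, Gbp5 from -0.14 to 0.0068 and Ifi44 from -0.52 to 0.020. Igtp ranged from -0.29 to 0.19, Irf7 from -0.14 to 0.22, Irf9 from -0.047 to 0.15, Mx1 from -0.22 to 0.12, Oasl2 from -0.43 to 0.042 and Stat2 from -0.13 to 0.022. Usp18 ranged from -0.045 to 0.26, Xaf1 from -0.048 to 0.26 and Zbp1 from -0.20 to 0.051. The receptor chain Ifngr2 ranged from -0.044 to 0.050. The causes were not tested. With 3 mice a group, and 42 counts of Cxcl10 in the smallest library, small changes of these genes are not resolved.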
